A study of Homo sapiens with 27 samples.

Results

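Collagen chain genes are the protein-coding genes that each encode 1 alpha chain of a collagen, and they were taken here as every protein-coding row whose symbol reads COL, a number, A and a number. The rule found 44 genes among 36585 in all, held in 50 of the 40487 rows of the deposited table, with the 7 rows of COL11A2 summed and every other member held in 1 row. The cells were MCF10A, an immortalised, non-tumorigenic human breast epithelial line, and all libraries therefore came from 1 line. Polyadenylated RNA was sequenced from 27 libraries in 9 groups of 3. A group called T0 was taken at 0 h. The other 8 groups were taken 24 h after the addition of phosphate-buffered saline (PBS), epidermal growth factor (EGF), oncostatin M (OSM), transforming growth factor beta (TGFB), EGF+OSM, EGF+TGFB, OSM+TGFB or EGF+OSM+TGFB, with each ligand at 10 ng/ml. All groups, T0 and PBS included, had grown in serum-containing medium with 20 ng/ml EGF, were seeded on plates coated with collagen-1 and then spent 18 h without growth factors. The coating is protein and the values below are RNA. The labels do not say whether the 3 libraries of a group came from separate cultures, so p-values measure the spread between libraries, which may be technical.

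Collagens are trimers of alpha chains wound into a triple helix, and the chains that pair up decide the type. Fibrillar collagens (types I, II, III, V, XI, XXIV and XXVII) build fibres, type IV builds the mesh of basement membranes, type VI builds beaded filaments, and type VII builds the anchoring fibrils that tie the epidermal basement membrane to the stroma. Type XVII is a transmembrane collagen of the hemidesmosomes with which basal epithelial cells hold on to that membrane, and the FACIT collagens (fibril-associated collagens with interrupted triple helices, such as types IX, XII and XVI) sit on fibre surfaces. Chains are hydroxylated and folded in the endoplasmic reticulum, secreted, trimmed by propeptidases and crosslinked outside the cell. TGFB is a well known inducer of matrix genes in many cell types.

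Sequence before the start site is shown for the COL4A1 and COL4A2 pair and for COL4A5, COL7A1, COL17A1 and COL27A1, examples from the type IV, anchoring fibril, transmembrane and fibrillar classes that were chosen with their values known. RefSeq promoters (GRCh38.p14, 250 bases before to 50 after each start) matched 32 of the 44 members with 44 promoters. Capitals mark matches, on either strand, to 6 motifs: CAGAC (SMAD box), TGANTCA (AP-1), TTCNNNGAA (STAT), GGGCGG (SP1), CCAAT and TATAAA. None of these motifs contains another. The segments below are the bases before the start, read 5′ to 3′ on the gene's strand. The first one lies between the divergent starts of COL4A1 and COL4A2, is read on the plus strand and stops at the first annotated exon.
COL4A1-COL4A2 (chr13:110307158-110307257, plus strand): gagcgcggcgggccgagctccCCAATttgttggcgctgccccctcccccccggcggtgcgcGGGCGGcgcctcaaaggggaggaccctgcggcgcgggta
COL4A5 (chrX:108439588-108439837, plus strand): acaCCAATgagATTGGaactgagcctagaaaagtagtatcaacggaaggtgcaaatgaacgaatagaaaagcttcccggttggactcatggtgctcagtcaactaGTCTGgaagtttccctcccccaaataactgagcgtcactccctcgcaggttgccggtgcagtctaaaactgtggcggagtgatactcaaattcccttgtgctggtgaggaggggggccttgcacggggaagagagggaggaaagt
COL7A1 (chr3:48595330-48595579, minus strand): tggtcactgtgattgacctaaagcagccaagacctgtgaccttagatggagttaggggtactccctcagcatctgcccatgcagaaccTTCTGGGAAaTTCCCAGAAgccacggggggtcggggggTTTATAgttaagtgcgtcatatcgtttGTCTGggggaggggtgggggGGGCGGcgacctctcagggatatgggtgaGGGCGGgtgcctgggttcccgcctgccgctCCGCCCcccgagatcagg
COL17A1 (chr10:104085881-104086130, minus strand): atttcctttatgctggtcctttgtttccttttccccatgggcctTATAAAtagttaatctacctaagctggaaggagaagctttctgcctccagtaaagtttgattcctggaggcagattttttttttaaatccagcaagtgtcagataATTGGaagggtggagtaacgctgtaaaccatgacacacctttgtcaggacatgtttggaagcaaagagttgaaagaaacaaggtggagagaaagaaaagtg
COL27A1 (chr9:114155287-114155536, plus strand): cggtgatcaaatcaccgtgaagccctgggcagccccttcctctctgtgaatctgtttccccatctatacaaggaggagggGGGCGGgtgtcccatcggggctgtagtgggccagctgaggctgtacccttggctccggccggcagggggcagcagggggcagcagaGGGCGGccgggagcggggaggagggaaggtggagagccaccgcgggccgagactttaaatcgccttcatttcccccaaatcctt

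The RefSeq starts of COL4A1 and COL4A2 lie 126 bases apart, and those of COL4A6 and COL4A5 lie 379 bases apart. The printed COL7A1 segment holds 2 STAT-type matches side by side, and the COL17A1 segment holds TATAAA and no GGGCGG. Over all promoters of members, CAGAC was present in 40.9% against 45.3% of the 35116 RefSeq promoters. GGGCGG was present in 54.5% against 45%, TATAAA in 18.2% against 11.5%, CCAAT in 31.8% against 34.6%, TTCNNNGAA in 4.55% against 7.66% and TGANTCA in 2.27% against 7.71%. These are matches of letters in one window and not mapped binding sites.

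Library totals ran from 30.1 M to 52.9 M estimated counts (M, 1000000), and the median was 39.5 M. Levels are given as CPM, the counts of a gene per 1000000 counts of its library, and fold changes come from edgeR with composition-adjusted library sizes. A gene is called where its adjusted p is under 0.05 over 15577 genes tested. Of the 44 members, 15 reached 10 CPM or more in at least 1 group, 8 peaked between 1 and 10 CPM, and 21 stayed under 1 CPM. The low-count filter kept 27 members and removed 17, none of which had a group mean above 0.262 CPM. A member that passed the filter through a single group where it is high had to differ, so counts over the 27 are descriptions.

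The share of all counts that fell in collagen genes was lowest in T0 and PBS and highest after OSM+TGFB. It was 0.192, 0.175 and 0.172% in the 3 T0 libraries and 0.196, 0.174 and 0.183% in the 3 PBS libraries. It was 0.209, 0.198 and 0.189% after EGF, 0.269, 0.239 and 0.235% after OSM and 0.299, 0.280 and 0.283% after TGFB. All OSM and TGFB libraries lay above all PBS libraries, while EGF overlapped PBS. With TGFB in a pair the share was 0.365, 0.357 and 0.342% (EGF+TGFB) and 0.425, 0.404 and 0.411% (OSM+TGFB), against 0.220, 0.191 and 0.188% for EGF+OSM. The triple combination gave 0.362, 0.355 and 0.338%. Every library that received TGFB thus lay above every library that did not, on library totals. With TMM-scaled library sizes this separation was lost, since OSM replicate 1 (0.270%) then lay above TGFB replicate 2 (0.267%). A bulk library cannot tell apart more cells with a message from more message per cell.

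COL17A1, the hemidesmosome collagen, held the largest share of these counts in every group. Its share of collagen counts was 60.6% ± 2.21 (SD, n = 3) in PBS and 69.1% ± 2.62 after OSM. It was 36.5% ± 0.491 after EGF+TGFB, where COL4A1 and COL4A2 took 17.9% ± 0.393 and 27.1% ± 0.757. In PBS these type IV chains held 0.981% ± 0.0784 and 2.16% ± 0.220. Type IV chains together went from 19.2% ± 0.785 of collagen counts in PBS to 50.8% ± 0.637 after EGF+TGFB.

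**Figure D1:**
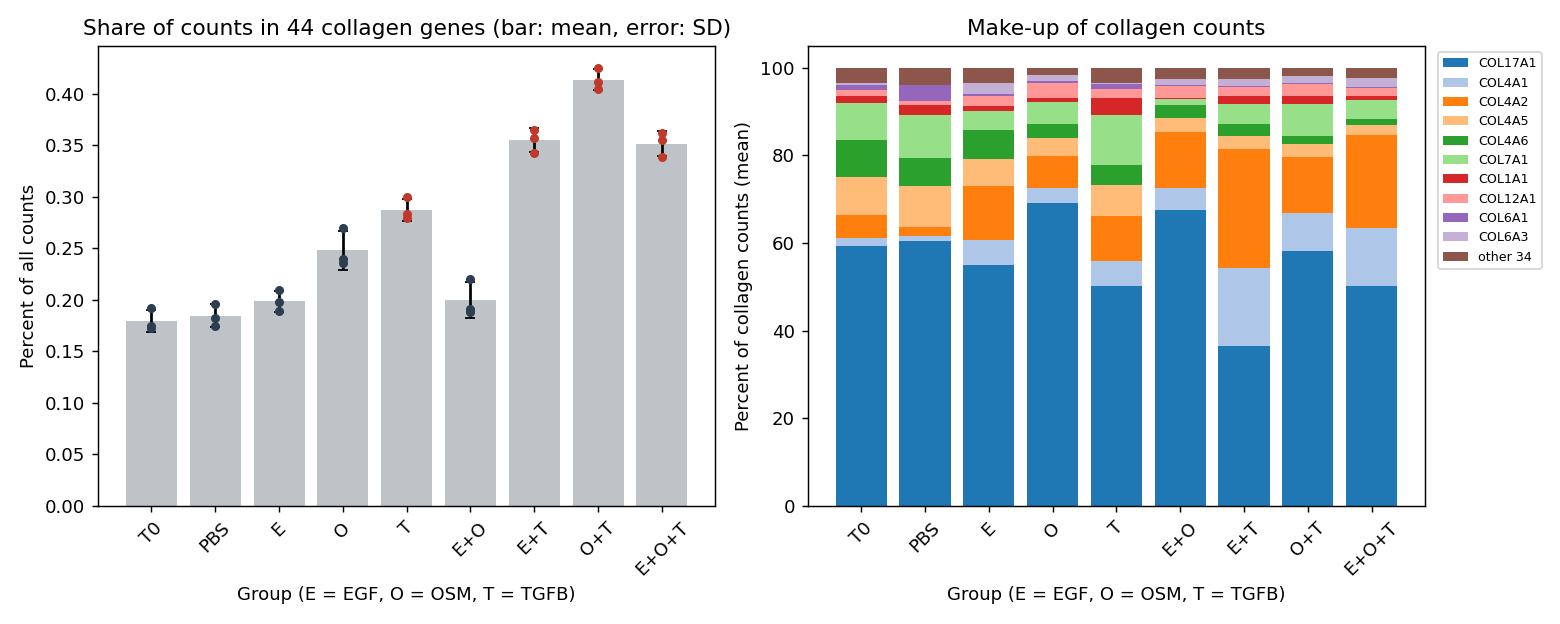
Left, percent of all counts in the 44 collagen genes (bars: mean of 3 libraries, error bars: SD, points: libraries, red where TGFB was given). Right, mean make-up of the collagen counts by gene in percent. The TGFB libraries lie above all others on the left, and COL4A1 and COL4A2 are widest on the right after EGF+TGFB.

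COL4A1 and COL4A2 encode the chains of the collagen IV trimer present in most basement membranes, and both rose after every ligand and every combination. All 7 treatments are set against the same 3 PBS libraries, here and below. COL4A1 (chr13:110148963-110307157 in GRCh38, minus strand) stood at 18.9, 15.9 and 19.5 CPM in PBS and at 121, 116 and 111 CPM after EGF. It stood at 84.7, 68.7 and 105 CPM after OSM and 171, 156 and 174 CPM after TGFB. No single-ligand library overlapped PBS. The log2 fold changes against PBS were 2.69 ± 0.13 (SE) for EGF, 2.41 ± 0.13 for OSM and 3.27 ± 0.14 for TGFB, a 9.64-fold rise (adjusted p = 3.4e-14). EGF+TGFB took COL4A1 to 666, 638 and 598 CPM and OSM+TGFB to 339, 319 and 406 CPM. The triple combination gave 469.9, 441 and 469 CPM. EGF+OSM, without TGFB, gave 115, 94.4 and 102 CPM, within the range spanned by EGF alone and OSM alone.

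COL4A2 (chr13:110305812-110513209, plus strand) also rose in all 7 treatments and was likewise highest after EGF+TGFB. It stood at 44.6, 33.2 and 41.9 CPM in PBS, 312, 287 and 294 CPM after TGFB and 968, 998 and 913 CPM after EGF+TGFB. The last of these is a 27.9-fold rise over PBS (log2 4.803 ± 0.11, adjusted p = 1.9e-20). The triple combination held 761, 740.0 and 749 CPM and OSM+TGFB 518, 489.6 and 587 CPM. Per kilobase of canonical transcript, COL4A2 exceeded COL4A1 in every group, by a ratio of 2.84 ± 0.179 (SD, n = 3) in T0, 2.23 ± 0.150 in PBS, 1.81 ± 0.0829 after TGFB and 1.54 ± 0.0573 after EGF+TGFB. The ratio was lower in all TGFB libraries than in all libraries without it. The annotated genes overlap by 1346 bases on opposite strands. The library kit keeps strand, but whether quantification used it is not given in the sources used here, so counts of the overlap may be split between the genes.

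On the log2 scale, the rises of this pair were smaller than the sum of their single-ligand parts. Departure from additivity compares a combination with its single ligands: their log2 changes against PBS are summed and taken away from that of the combination. It was -2.48 ± 0.18 for COL4A1 and -2.19 ± 0.14 for COL4A2 in EGF+OSM. In EGF+TGFB it was -0.62 ± 0.18 for COL4A1, a call that was lost without EGF+TGFB replicate 3 (-0.51, adjusted p = 0.051), and -0.80 ± 0.14 for COL4A2. In OSM+TGFB the values were -1.07 ± 0.18 and -1.23 ± 0.14. The ligands of a combination were given together, so a ligand is called added where a combination is set against the group without that ligand, and the latter is its background. OSM added to EGF gave no call for either gene (-0.07 ± 0.12 and 0.14 ± 0.10). A sum of log2 changes is a product of folds, and additivity of levels in CPM was not tested. Mean COL4A1 levels were 18.1 CPM in PBS, 116 CPM after EGF, 86.2 CPM after OSM and 167 CPM after TGFB. They were 634 CPM after EGF+TGFB, 355 CPM after OSM+TGFB and 104 CPM after EGF+OSM.

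COL4A5 and COL4A6, whose chains form another collagen IV network and whose genes share a start region on the X chromosome, moved differently. COL4A5 (chrX:108439838-108697545, plus strand) stood at 179, 157 and 177 CPM in PBS, 126, 122 and 113 CPM after EGF and 112, 104 and 99.8 CPM after OSM. It stood at 201, 194 and 199 CPM after TGFB and 63.4, 64.6 and 64.0 CPM after EGF+OSM. It was thus higher than PBS after TGFB alone (log2 0.27 ± 0.04 (SE), adjusted p = 2.0e-05) and lower after every treatment that held EGF or OSM, most so after EGF+OSM (log2 -1.31 ± 0.05 (SE), adjusted p = 2.1e-18). COL4A6 (chrX:108155607-108439497, minus strand) stood at 124, 115 and 123 CPM in PBS, 82.4, 75.6 and 71.7 CPM after OSM and 46.4, 46.9 and 50.2 CPM after all ligands. Its log2 change was -0.50 after OSM and -1.02 after all ligands. The changes of COL4A6 after EGF and TGFB alone were small: 0.15 ± 0.05 (SE), adjusted p = 0.0083 for EGF and 0.19 ± 0.05 (SE), adjusted p = 0.0036 for TGFB. The EGF call was lost with upper-quartile scaling (0.08, adjusted p = 0.137).

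COL4A1 was thereby scarce beside COL4A5 in PBS and abundant beside it in the combinations. The per-kilobase ratio of COL4A1 to COL4A5 was 0.106 ± 0.00419 in PBS and 0.842 ± 0.0347 after TGFB. It was 5.79 ± 0.539 after EGF+TGFB and 6.17 ± 0.359 after all ligands. COL4A3 and COL4A4 encode the chains that join COL4A5 in the kidney glomerulus. COL4A4 stood at 4.28 ± 0.730 CPM (SD, n = 3) in PBS, 1.95 ± 0.249 CPM after EGF and 6.99 ± 0.627 CPM after OSM+TGFB. It fell after EGF (log2 -1.11 ± 0.14 (SE), adjusted p = 5.4e-08) and rose after OSM+TGFB (1.03 ± 0.13 (SE), adjusted p = 6.6e-08). Its smaller rise after TGFB alone (0.42 ± 0.13 (SE), adjusted p = 0.011) was no longer called without PBS replicate 2 (0.29, adjusted p = 0.096). COL4A3 had group means from 0.108 to 0.268 CPM.

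**Figure D2:**
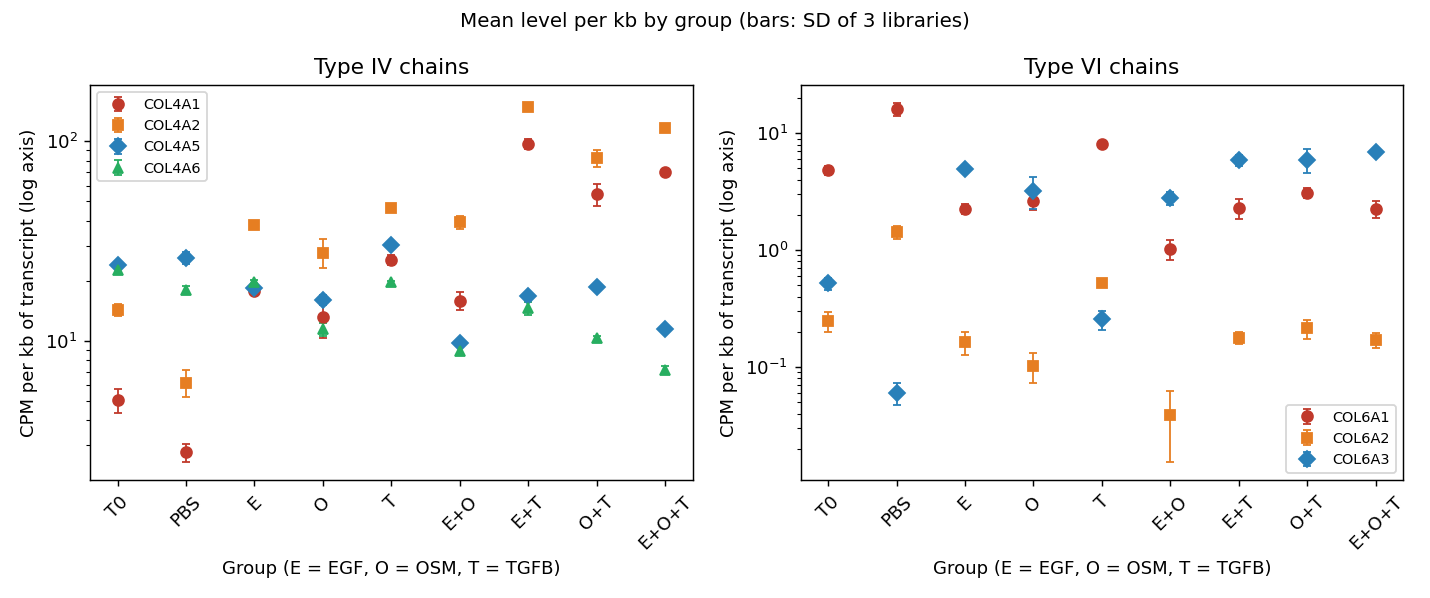
Mean CPM per kilobase of canonical transcript for type IV chains (left) and type VI chains (right) in each group, on log axes, with SD bars over 3 libraries. COL4A1 and COL4A2 sit below COL4A5 in PBS and above it in the TGFB pairs and the triple combination, and COL6A3 sits below COL6A1 in PBS and above it in every group with EGF or OSM.

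Type VI collagen is assembled from the chains of COL6A1, COL6A2 and a longer chain, most often that of COL6A3. Against PBS, COL6A3 moved opposite to COL6A1 and COL6A2 in these cells. COL6A3 (chr2:237324003-237414328, minus strand) stood at 0.755, 0.488 and 0.641 CPM in PBS and 2.97, 2.11 and 3.001 CPM after TGFB. It stood at 54.8, 47.4 and 53.5 CPM after EGF and 34.3, 23.6 and 44.3 CPM after OSM. Every treated library exceeded every PBS library. The rise was 83.9-fold after EGF (log2 6.39 ± 0.28 (SE), adjusted p = 2.5e-14) and 4.49-fold after TGFB (log2 2.17 ± 0.39 (SE), adjusted p = 1.6e-04). The PBS level, under 1 CPM, is a low base for these folds.

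COL6A1 (chr21:45981770-46005050, plus strand) did the reverse and stood at 57.9, 70.9 and 74.3 CPM in PBS, 9.22, 10.6 and 8.69 CPM after EGF and 12.7, 11.6 and 9.06 CPM after OSM. It stood at 31.4, 35.8 and 34.6 CPM after TGFB and 4.84, 4.73 and 3.36 CPM after EGF+OSM. It fell in all 7 treatments, with a log2 change of -0.94 after TGFB and of -3.87 after EGF+OSM. COL6A2 (chr21:46098112-46132848, plus strand), its neighbour on chromosome 21, fell from 4.93 ± 0.641 CPM (SD, n = 3) in PBS to 0.564 ± 0.128 CPM after EGF and 0.133 ± 0.0800 CPM after EGF+OSM. It also fell in all 7 treatments. The per-kilobase ratio of COL6A3 to COL6A1 was 0.00380 ± 0.00127 in PBS, 0.0320 ± 0.00748 after TGFB, 2.21 ± 0.364 after EGF and 3.16 ± 0.629 after all ligands. COL6A6, another long chain, was called lower than PBS in every treatment that held EGF or OSM, as COL6A1 and COL6A2 were. Its log2 changes were -1.67 ± 0.50 (SE), adjusted p = 0.0039 after EGF and -3.84 ± 0.63 (SE), adjusted p = 8.4e-06 after OSM. TGFB alone was not called for it (-0.18 ± 0.46 (SE), adjusted p = 0.801). The group means of COL6A6 were low, from 0.0502 CPM to 1.002 CPM in PBS, and COL6A5 had at most 0.0458 CPM.

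With TGFB added to OSM, or to EGF+OSM, COL6A1 and COL6A2 were higher and not lower. In the OSM background the log2 changes were 0.38 ± 0.16 for COL6A1, lost without OSM replicate 3 (0.26, adjusted p = 0.217) and under 5 other alternatives, and 1.19 ± 0.28 for COL6A2. In the EGF+OSM background TGFB raised COL6A1 by 1.35 ± 0.18 (SE), adjusted p = 5.4e-07 and COL6A2 by 2.31 ± 0.34 (SE), adjusted p = 1.6e-06, both as log2 fold changes. COL6A3 rose as well (1.54 ± 0.17 (SE), adjusted p = 1.4e-07). EGF and OSM together gave COL6A3 far less than the sum of their parts, with a departure of -6.66 ± 0.34 (SE), adjusted p = 4.7e-12. The EGF+OSM libraries held 33.6, 27.1 and 27.1 CPM, below every EGF library.

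Among fibrillar chains COL1A1 was the highest in every group other than EGF+OSM, where COL5A2 held 6.07, 5.87 and 5.94 CPM and exceeded it in all 3 libraries. Its partner COL1A2 stayed under 1 CPM. COL1A1 encodes the major chain of type I collagen, which is normally made of the products of both genes. COL1A1 (chr17:50184101-50201632, minus strand) stood at 41.9, 38.9 and 46.6 CPM in PBS, 116, 110.3 and 122 CPM after TGFB and 5.28, 5.66 and 3.90 CPM after EGF+OSM. The groups did not overlap. TGFB raised it 2.86-fold (log2 1.52 ± 0.10 (SE), adjusted p = 4.9e-12) and EGF+OSM lowered it 7.98-fold (log2 -2.996 ± 0.12 (SE), adjusted p = 5.1e-17). EGF alone and OSM alone left 22.9, 23.9 and 22.3 CPM and 27.7, 26.3 and 22.3 CPM, log2 changes of -0.87 ± 0.10 and -0.58 ± 0.10. Their combination was lower than the sum of these falls by a departure of -1.55 ± 0.15 (SE), adjusted p = 1.7e-08. With all ligands COL1A1 stood at 33.2, 38.8 and 35.2 CPM, below every PBS library on library totals. On composition-adjusted library sizes it was not called against PBS and the estimate had the other sign (log2 0.07 ± 0.10 (SE), adjusted p = 0.527).

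COL1A2 had group means from 0.0251 to 0.282 CPM. The 4 groups with TGFB ranged from 0.217 to 0.282 CPM, and the 5 without it were at or under 0.0628 CPM. Addition of TGFB was called in each of its 4 backgrounds, on counts of a few reads per library without it, so no fold is given. COL3A1, another main fibrillar gene of stroma, had 6 counts in all 27 libraries together.

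COL2A1 fell after EGF and after OSM, and COL5A2 fell after EGF and by less after OSM. COL2A1, the chain of cartilage type II collagen, stood at 9.68, 11.01 and 10.7 CPM in PBS, 1.06, 1.05 and 0.604 CPM after EGF and 1.79, 1.56 and 1.11 CPM after OSM. The changes were -3.50 ± 0.21 (SE), adjusted p = 1.1e-13 after EGF and -2.65 ± 0.20 (SE), adjusted p = 1.3e-11 after OSM. TGFB alone left 8.15, 7.90 and 8.21 CPM, not called (-0.31 ± 0.18 (SE), adjusted p = 0.184). COL5A2, a type V chain that helps start fibrils, stood at 14.8, 14.1 and 12.7 CPM in PBS, 6.995, 6.55 and 6.54 CPM after EGF and 13.4, 13.5 and 12.5 CPM after TGFB. It fell after EGF (-1.04 ± 0.08 (SE), adjusted p = 1.5e-11) and after OSM (-0.22 ± 0.08 (SE), adjusted p = 0.017), a call lost without PBS replicate 1 or 2 or OSM replicate 1 or 3 (without OSM replicate 3: -0.15, adjusted p = 0.130), and was not called after TGFB (-0.02 ± 0.08 (SE), adjusted p = 0.896). COL5A1, the main partner of COL5A2, reached 0.285 CPM at most and was at 0 in all T0 and TGFB libraries.

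COL5A3 and COL27A1 behaved unlike the other fibrillar genes. COL5A3 stood at 5.64 ± 1.45 CPM (SD, n = 3) in PBS, 3.42 ± 0.478 CPM after OSM, 3.71 ± 0.513 CPM after TGFB and 6.01 ± 1.20 CPM after OSM+TGFB. It fell after OSM (-0.57 ± 0.17 (SE), adjusted p = 0.0045) and after TGFB (-0.54 ± 0.17 (SE), adjusted p = 0.013). The PBS libraries held 5.26, 4.41 and 7.24 CPM, and both calls were lost without PBS replicate 3 (-0.34, adjusted p = 0.077 for OSM and -0.31, adjusted p = 0.163 for TGFB). The TGFB call was also lost without TGFB replicate 1 or 2. COL27A1 (chr9:114155537-114312511, plus strand), a fibrillar chain known from cartilage, stood at 1.31, 1.44 and 1.496 CPM in PBS, 5.62, 3.47 and 3.42 CPM after OSM and 2.99, 2.87 and 3.99 CPM after TGFB. It stood at 25.0, 24.2 and 26.8 CPM after OSM+TGFB and 29.9, 33.0 and 32.0 CPM after all ligands. No library of another group exceeded 5.62 CPM. The OSM+TGFB rise was 22.2-fold (log2 4.47 ± 0.20 (SE), adjusted p = 4.3e-16), above the sum of the single-ligand changes by 1.51 ± 0.28 (SE), adjusted p = 3.9e-04. EGF alone was not called (0.09 ± 0.24 (SE), adjusted p = 0.756).

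**Figure D3:**
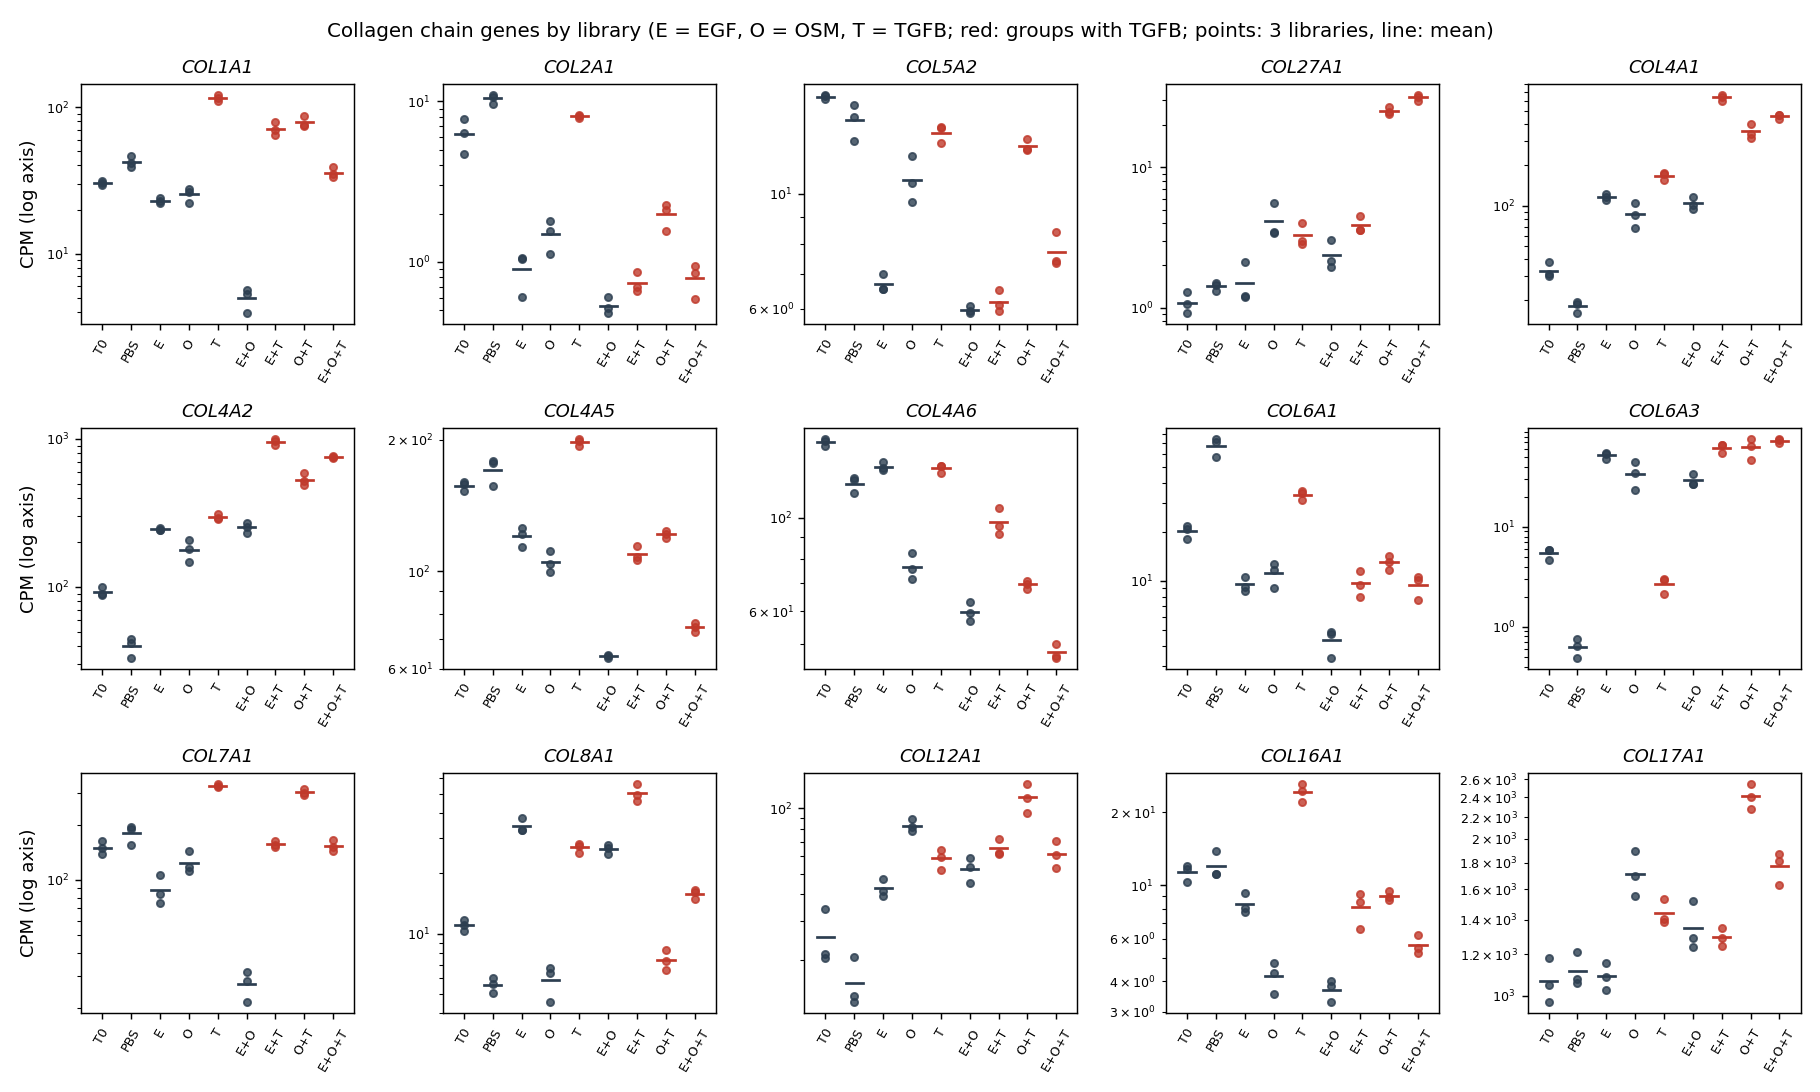
CPM of the 15 members that reached 10 CPM in a group, on log axes that differ between panels (points: 3 libraries, line: mean, red: groups with TGFB). COL27A1 stands apart in OSM+TGFB and EGF+OSM+TGFB, and COL1A1 and COL7A1 are lowest in EGF+OSM.

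COL7A1 and COL17A1 encode collagens of the epithelial attachment complex. COL7A1 (chr3:48564073-48595329, minus strand) stood at 195, 156 and 191 CPM in PBS, 336, 320.0 and 324 CPM after TGFB and 314, 298 and 289.8 CPM after OSM+TGFB. After EGF it stood at 106, 83.3 and 74.6 CPM and after EGF+OSM at 31.6, 28.0 and 21.5 CPM. TGFB raised it by 0.92 ± 0.12 (SE), adjusted p = 1.7e-06 on the log2 scale, and EGF+OSM gave -2.64 ± 0.13 (SE), adjusted p = 2.1e-14, past the sum of the single ligands by -1.23 ± 0.17 (SE), adjusted p = 5.0e-06. The fall after OSM alone (-0.38 ± 0.12 (SE), adjusted p = 0.0080) was lost without OSM replicate 3 (-0.30, adjusted p = 0.053). With EGF+TGFB and with all ligands COL7A1 was not called against PBS (0.01 ± 0.12 and 0.09 ± 0.12), with library values of 163, 155 and 152 CPM and 151, 166 and 143 CPM.

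COL17A1 (chr10:104031286-104085880, minus strand) was the most abundant collagen transcript in every group, per library and per kilobase. It stood at 1215, 1078 and 1059.8 CPM in PBS, 1158, 1087 and 1026 CPM after EGF, 1891, 1697 and 1555 CPM after OSM and 1533, 1406 and 1383 CPM after TGFB. EGF overlapped PBS and was not called (-0.02 ± 0.08 (SE), adjusted p = 0.821). OSM and TGFB lay above PBS (0.78 ± 0.08 (SE), adjusted p = 6.4e-09 and 0.43 ± 0.08 (SE), adjusted p = 1.4e-04). OSM+TGFB gave 2551, 2401 and 2284 CPM, a 2.69-fold rise (log2 1.43 ± 0.08 (SE), adjusted p = 5.3e-14). That did not depart from the sum of its parts by a called amount (0.22 ± 0.11 (SE), adjusted p = 0.176).

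COL12A1 and COL16A1, both FACIT collagens, both rose after TGFB and moved in opposite directions after EGF and after OSM. COL12A1 stood at 13.5, 12.7 and 20.6 CPM in PBS, 39.3, 47.1 and 41.7 CPM after EGF, 78.4, 82.5 and 89.0 CPM after OSM and 51.8, 59.9 and 64.4 CPM after TGFB. It rose in all 7 treatments, by 1.47 ± 0.20 (log2) after EGF and 5.97-fold after OSM (log2 2.58 ± 0.20 (SE), adjusted p = 5.2e-10). OSM+TGFB gave 95.8, 130.4 and 112 CPM. Every combination lay below the sum of its parts, with departures from -1.17 ± 0.27 in EGF+TGFB to -3.73 ± 0.41 in the triple combination. COL16A1 stood at 13.9, 11.1 and 11.1 CPM in PBS, 4.34, 3.54 and 4.77 CPM after OSM, 26.3, 24.6 and 22.0 CPM after TGFB and 3.82, 3.27 and 4.01 CPM after EGF+OSM. TGFB raised it by 1.08 ± 0.11 (SE), adjusted p = 1.8e-08, OSM lowered it (-1.36 ± 0.12 (SE), adjusted p = 3.7e-10) and EGF lowered it (-0.51 ± 0.11 (SE), adjusted p = 2.9e-04), all on the log2 scale. COL9A2, a cartilage FACIT chain, had group means from 0.0263 to 0.452 CPM.

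COL8A1 and COL8A2 encode short chains that form open networks under endothelium and in other membranes. COL8A1 stood at 5.56, 5.02 and 5.98 CPM in PBS, 38.0, 33.1 and 33.1 CPM after EGF, 6.39, 4.52 and 6.70 CPM after OSM and 28.2, 25.2 and 27.5 CPM after TGFB. EGF raised it 6.35-fold (log2 2.67 ± 0.11 (SE), adjusted p = 2.1e-16) and TGFB 5.11-fold, while OSM overlapped PBS (0.24 ± 0.12 (SE), adjusted p = 0.096). The rise with TGFB was smaller where OSM was present: OSM+TGFB held 7.26, 6.61 and 8.24 CPM, a departure of -1.85 ± 0.16 (SE), adjusted p = 1.8e-08. Added to EGF+OSM, TGFB lowered COL8A1 from 27.8, 25.2 and 26.9 CPM to 16.5, 16.2 and 14.9 CPM (-0.53 ± 0.10 (SE), adjusted p = 7.1e-05). COL8A2 stayed low, at 0.0636 ± 0.0562 CPM (SD, n = 3) in PBS, 0.610 ± 0.135 CPM after OSM and 1.32 ± 0.0994 CPM after OSM+TGFB. It was called higher than PBS in the 6 treatments other than EGF alone.

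The remaining members above 1 CPM were COL13A1, COL18A1 and COL28A1. COL13A1, a transmembrane collagen of cell adhesions, stood at 0.233 ± 0.0532 CPM (SD, n = 3) in PBS, 0.970 ± 0.0450 CPM after EGF and 2.27 ± 0.283 CPM after all ligands. It rose in the 6 treatments with EGF or OSM, and TGFB alone gave -0.10 ± 0.43 (SE), adjusted p = 0.891. COL18A1, the basement membrane collagen from which endostatin is cut, stood at 3.18 ± 0.283 CPM in PBS, 5.34 ± 1.16 CPM after TGFB and 1.57 ± 0.340 CPM after EGF+OSM. It rose after TGFB (0.80 ± 0.16 (SE), adjusted p = 2.9e-04) and fell after EGF+OSM (-0.92 ± 0.18 (SE), adjusted p = 4.0e-05). COL28A1, which encodes a von Willebrand factor A domain collagen, stood at 7.02 ± 0.908 CPM in PBS, 0.423 ± 0.213 CPM after EGF and 0.0589 ± 0.0274 CPM after EGF+OSM. It fell after EGF, with a log2 change of -4.01, and was not called after TGFB (-0.18 ± 0.23 (SE), adjusted p = 0.575).

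Across the members that were tested, EGF and OSM each moved chains in both directions and TGFB moved most of the called ones up. EGF against PBS called 7 members higher and 11 lower of 27, where 73.5% of all genes tested were called, 34.9% higher and 38.6% lower. OSM called 8 higher and 12 lower (all genes 63.3%, with 33.5% higher and 29.8% lower). TGFB called 17 higher and 3 lower (all genes 35.6%, with 19.9% higher and 15.8% lower). The share for EGF, 66.7%, is near the 73.5% of all genes. For OSM it was 74.1% against 63.3%, a difference that was not tested. The median log2 fold change of the 27 was 0.43 for TGFB against -0.01 for all genes, -0.39 against -0.07 for EGF and -0.30 against 0.002 for OSM.

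The combinations against PBS split as follows. EGF+OSM called 9 higher and 15 lower (all genes 77.2%, with 37.6% higher and 39.6% lower), the only treatment besides EGF and OSM with more lower than higher. EGF+TGFB called 14 and 9 (all genes 73.7%, with 36.1% higher and 37.5% lower). OSM+TGFB called 15 and 7 (all genes 66%, with 34.2% higher and 31.8% lower). All ligands together called 12 and 10 (all genes 74.4%, with 37.7% higher and 36.7% lower). By structural class, 5 of the 6 type IV genes were called higher after TGFB and COL4A3 was not called, all 3 tested FACIT genes were higher (COL9A2 not without PBS replicate 2: 0.94, adjusted p = 0.187, nor without PBS replicate 3 or any 1 TGFB library, nor with DESeq2), and 2 of the 4 tested type VI genes were lower and 1 higher. After EGF+OSM, 4 of the 7 tested fibrillar genes were lower and 1 higher, together near the 77.2% of all genes called. These class counts rest on few genes and are descriptions.

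**Figure D4:**
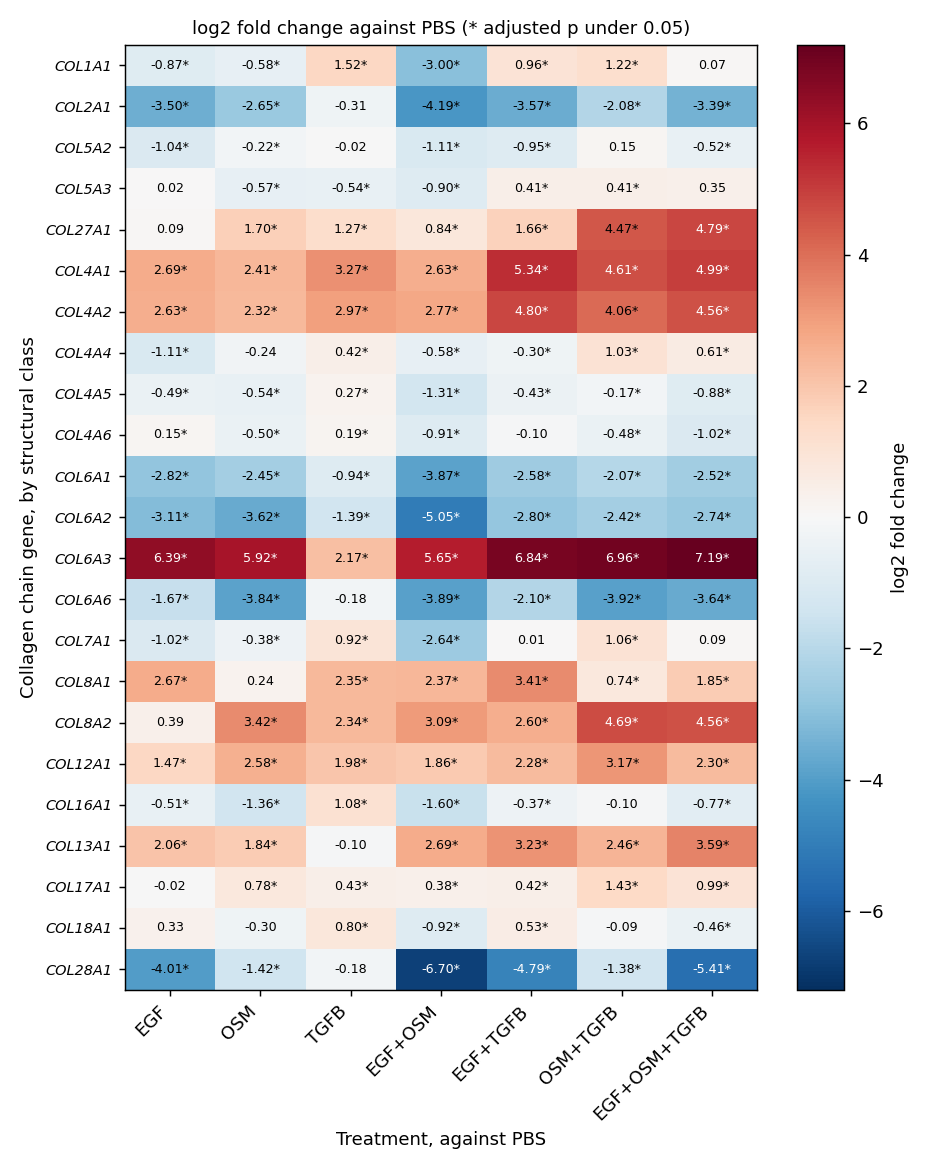
Log2 fold change against PBS for the 23 members that reached 1 CPM in a group, in rows ordered by structural class and columns by treatment (red: higher, blue: lower, asterisk: adjusted p under 0.05). COL4A1, COL4A2 and COL6A3 are red in all 7 columns, and COL6A1 and COL6A2 are blue in all 7.

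TGFB can be followed in 4 backgrounds that share no libraries: PBS, EGF, OSM and EGF+OSM. Libraries of the same replicate number deviated together, so the 4 comparisons are not fully independent. Added to EGF it called 14 members higher and 1 lower (all genes 54.6%, with 27% higher and 27.7% lower). Added to OSM it called 20 higher (all genes 51.6%, with 26.1% higher and 25.6% lower), and the only negative estimate was that of COL6A6 (-0.09 ± 0.93). Added to EGF+OSM it called 22 higher and 1 lower (all genes 61.1%, with 31.6% higher and 29.5% lower). In all 4 backgrounds 11 members were called higher: COL1A1, COL1A2, COL4A1, COL4A2, COL4A4, COL6A3, COL7A1, COL8A2, COL12A1, COL17A1 and COL27A1. No member had a negative estimate in all 4. Of all genes tested, 11.6% were called higher and 7.99% lower in all 4. Some of these calls rest on few libraries. The call of COL6A3 on addition to EGF was lost without EGF replicate 2 (0.40, adjusted p = 0.096), and also without EGF replicate 1, EGF+TGFB replicate 1 or EGF+TGFB replicate 3, and with DESeq2. The call of COL12A1 on addition to EGF+OSM was lost without EGF+OSM replicate 1 (0.34, adjusted p = 0.170), and also without EGF+OSM replicate 3, without replicate 2 or 3 of the triple combination, and with DESeq2. On addition to OSM it was lost without OSM+TGFB replicate 2 (0.48, adjusted p = 0.054).

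The estimated size of the TGFB effect differed between backgrounds, but the difference between PBS and the EGF+OSM background was not tested. For COL1A1 the log2 change on adding TGFB was 1.52 ± 0.10 (SE) in PBS, 1.83 ± 0.10 in EGF, 1.80 ± 0.10 in OSM and 3.07 ± 0.12 in EGF+OSM, where the level without TGFB was lowest. COL7A1 likewise went from 0.92 ± 0.12 in PBS to 2.72 ± 0.13 in EGF+OSM, and COL27A1 from 1.27 ± 0.22 to 3.95 ± 0.19. For COL4A1 and COL4A2 the change was largest in PBS, 3.27 ± 0.14 and 2.97 ± 0.11, against 2.36 ± 0.13 and 1.79 ± 0.10 in EGF+OSM. The difference between PBS and the OSM background was called for COL27A1 (1.51 ± 0.28 (SE), adjusted p = 3.9e-04) and COL4A1 (-1.07 ± 0.18 (SE), adjusted p = 1.5e-04). For COL1A1 it was not (0.28 ± 0.13 (SE), adjusted p = 0.147).

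**Figure D5:**
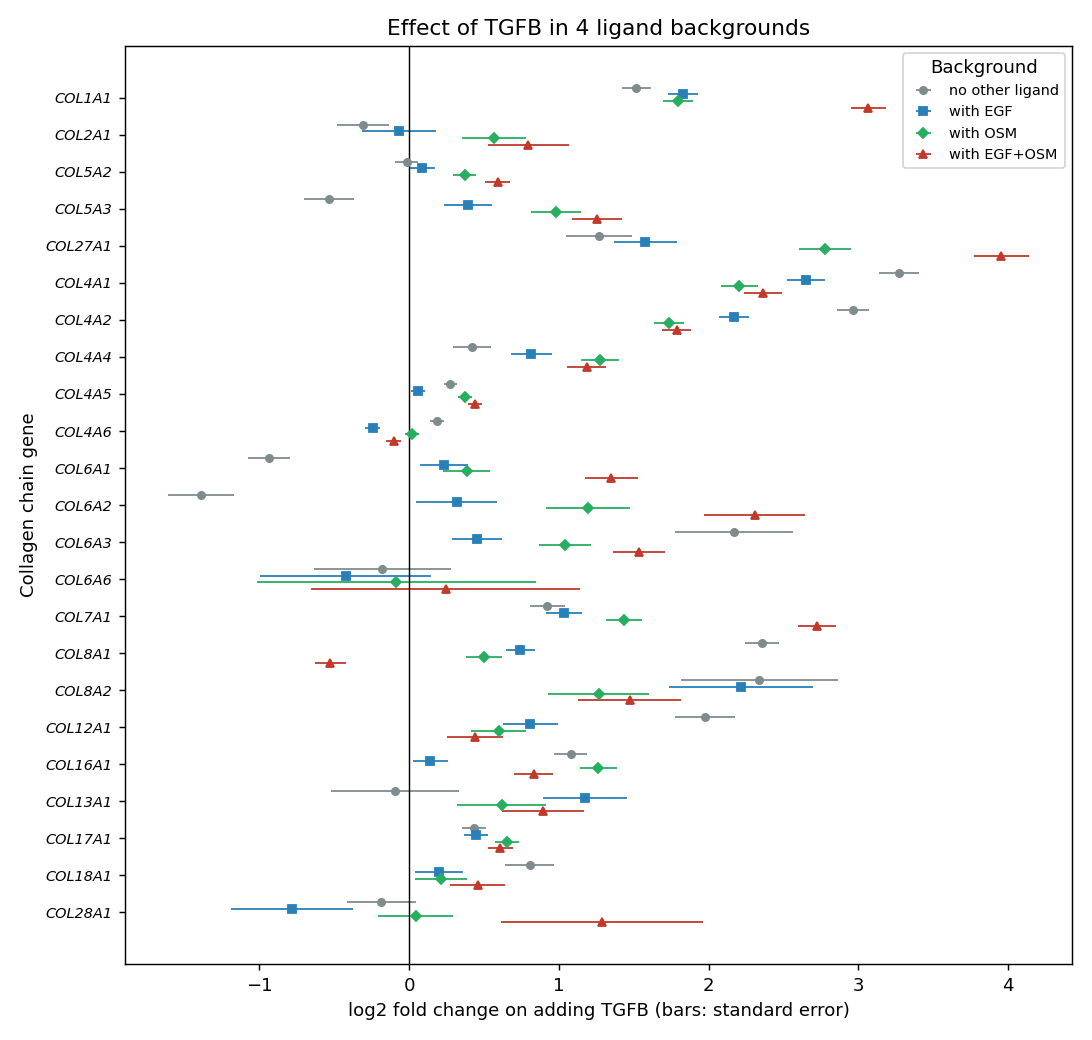
Log2 fold change on adding TGFB in the PBS, EGF, OSM and EGF+OSM backgrounds for 23 members (bars: standard error, vertical line: no change). COL1A1, COL7A1 and COL27A1 lie farthest right in EGF+OSM, COL4A1 and COL4A2 farthest right in PBS, and COL6A1, COL6A2 and COL5A3 cross the line.

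EGF added to TGFB called 6 members higher and 12 lower (all genes 69.4%, with 33.9% higher and 35.5% lower). Added to OSM it called 3 and 14 (61.7%, 29.9% and 31.8% of all genes), and added to OSM+TGFB 4 and 12 (52.2%, 26.3% and 25.9%). OSM added to TGFB called 11 higher and 12 lower (56.6%, 30.1% and 26.5% of all genes). Added to EGF it called 4 and 15 (34.9%, 17.8% and 17.1%), and added to EGF+TGFB 6 and 8 (26.4%, 13.6% and 12.8%). EGF was called in all 4 of its backgrounds for 3 members in the upward direction (COL4A2, COL8A1 and COL13A1) and for 8 in the downward direction. The 8 were COL1A1, COL2A1, COL4A4, COL4A5, COL5A2, COL6A1, COL7A1 and COL28A1. Of all genes, 17.4% were called higher and 16.7% lower in all 4. OSM was called in all 4 upward for COL8A2, COL17A1 and COL27A1, and downward for COL1A1, COL4A5, COL4A6 and COL16A1, against 6.41% and 5.68% of all genes. COL1A1 and COL4A5 are the members lowered by both ligands in every background. Some of the smaller effects were lost without single libraries. EGF on COL13A1 in OSM was not called without OSM replicate 2 (0.67, adjusted p = 0.085) or EGF+OSM replicate 2. EGF on COL4A4 in OSM was not called without OSM replicate 3 (-0.28, adjusted p = 0.114), OSM replicate 2, EGF+OSM replicate 1 or EGF+OSM replicate 3, or with DESeq2. EGF on COL6A1 in OSM+TGFB was not called without EGF+OSM+TGFB replicate 3 (-0.32, adjusted p = 0.123) or OSM+TGFB replicate 1. OSM on COL27A1 in EGF was not called without EGF+OSM replicate 1 (0.54, adjusted p = 0.088), EGF replicate 2 or EGF replicate 3. OSM on COL16A1 in EGF+TGFB was not called without EGF+TGFB replicate 3 (-0.34, adjusted p = 0.065), EGF+TGFB replicate 1 or EGF+OSM+TGFB replicate 1.

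The test of departure from additivity itself called members in every combination. EGF+OSM had 4 members above the sum and 13 below (all genes 38.7%, with 15.7% higher and 23% lower). EGF+TGFB had 3 above and 9 below (all genes 29.8%, with 13.3% higher and 16.5% lower), and OSM+TGFB 9 above and 4 below (all genes 23.3%, with 9.6% higher and 13.7% lower). The triple combination had 7 and 7 (all genes 47.9%, with 22% higher and 25.9% lower), and its share of 51.9% is near that of all genes. A departure above the sum can mean a smaller joint fall, as for COL6A1 in EGF+OSM (1.39 ± 0.23 (SE), adjusted p = 4.2e-05) and COL2A1 (1.97 ± 0.34 (SE), adjusted p = 4.1e-05), or a larger joint rise, as for COL27A1 in OSM+TGFB. COL6A2 in EGF+OSM (1.68 ± 0.46 (SE), adjusted p = 0.0053) was lost without EGF+OSM replicate 2 (1.15, adjusted p = 0.188), with levels near 0.1 CPM in that group.

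Over the 24 h in PBS, cells already changed several chains relative to T0. Of the 27 members, 8 were called higher and 6 lower (all genes 35.1%, with 16.2% higher and 18.9% lower). COL6A1 rose from 21.6, 20.8 and 18.1 CPM in T0 (log2 1.74 ± 0.15 (SE), adjusted p = 4.9e-09), and COL6A2 from 0.855 ± 0.172 CPM (2.52 ± 0.23 (SE), adjusted p = 8.4e-09). COL6A3 fell from 5.81, 4.69 and 5.89 CPM (-3.13 ± 0.34 (SE), adjusted p = 4.6e-07). COL4A1 and COL4A2 fell from 30.001, 31.1 and 38.2 CPM and 89.0, 87.7 and 99.8 CPM, with log2 changes of -0.88 and -1.21. COL8A1 fell from 11.1, 10.3 and 11.7 CPM (-0.999 ± 0.12 (SE), adjusted p = 2.4e-07). This comparison shares the PBS libraries with those of the ligands. COL12A1, called lower in PBS (-0.70 ± 0.20 (SE), adjusted p = 0.011), overlapped T0 and was lost without T0 replicate 3 (-0.41, adjusted p = 0.108), PBS replicate 1 or PBS replicate 2. COL17A1 and COL7A1 were not called (0.06 ± 0.08 and 0.26 ± 0.12).

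The genes that fold, secrete, crosslink and bind collagens are given as lists beside the chains. Of 18 folding and modification enzymes, all tested, TGFB called 10 higher and 2 lower, EGF 11 and 4, OSM 11 and 3, and all ligands together 14 and 2. The shares of all genes called were 35.6% for TGFB, 73.5% for EGF, 63.3% for OSM and 74.4% for all ligands. After TGFB the largest called changes were in P4HA3, a prolyl hydroxylase subunit (0.287 ± 0.161 CPM in PBS, 8.68 ± 2.76 CPM after TGFB, log2 4.94 ± 0.31 (SE), adjusted p = 4.0e-12), in PLOD2, the lysyl hydroxylase of telopeptides (1.48 ± 0.10 (SE), adjusted p = 7.3e-11), and in SERPINH1, the collagen chaperone HSP47 (0.72 ± 0.07 (SE), adjusted p = 7.8e-09). All ligands together took PLOD2 from 71.4 ± 3.71 CPM to 1488 ± 194 CPM (log2 4.70 ± 0.12 (SE), adjusted p = 3.0e-20) and SERPINH1 from 62.1 ± 3.30 CPM to 238 ± 4.04 CPM (2.26 ± 0.07 (SE), adjusted p = 1.8e-19). P4HA3 reached 10.1 ± 1.05 CPM (5.41 ± 0.30 (SE), adjusted p = 4.3e-14).

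Of 15 secretion and propeptide processing genes, 14 were tested, and TGFB called 6 higher and 2 lower, EGF 5 and 5, OSM 7 and 4, and all ligands 5 and 5 (of all genes 35.6%, 73.5%, 63.3% and 74.4% were called, in that order). The EGF and all-ligand counts, 10 of 14 each, are near those shares. After TGFB, the procollagen C-proteinases TLL1 (1.19 ± 0.09 (SE), adjusted p = 3.4e-11) and BMP1 (0.98 ± 0.06 (SE), adjusted p = 5.8e-12) rose. ADAMTS2, a procollagen N-proteinase, was called higher at only 0.286 ± 0.0652 CPM. After all ligands the COPII coat genes SEC24D (2.36 ± 0.06 (SE), adjusted p = 3.6e-21) and SEC23A (1.68 ± 0.06 (SE), adjusted p = 1.1e-18), which serve export of large cargo, rose. The N-proteinase ADAMTS14 fell (-2.16 ± 0.32 (SE), adjusted p = 1.4e-06).

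Of 6 crosslinking genes, 5 were tested, and TGFB called 4 higher, EGF 3 higher and 2 lower, OSM 1 and 2, and all ligands 4 and 1 (of all genes 35.6%, 73.5%, 63.3% and 74.4% were called, in that order). The OSM count, 3 of 5, is near its share. TGFB raised LOXL2 (1.011 ± 0.16 (SE), adjusted p = 2.2e-05), LOX (0.83 ± 0.17 (SE), adjusted p = 4.7e-04) and PXDN (0.78 ± 0.08 (SE), adjusted p = 1.1e-08), the last a peroxidase that crosslinks collagen IV. With all ligands LOXL2 went from 11.6 ± 2.01 CPM to 219.9 ± 19.2 CPM (4.57 ± 0.16 (SE), adjusted p = 9.6e-17), while LOX fell from 333 ± 15.9 CPM to 45.5 ± 7.74 CPM (-2.55 ± 0.18 (SE), adjusted p = 4.7e-11). LOXL3 rose at a low level (1.40 ± 0.277 CPM, 1.63 ± 0.32 (SE), adjusted p = 7.5e-05). LOX and LOXL2, both lysyl oxidases, thus moved together after TGFB and in opposite directions after all ligands. They also moved in opposite directions after EGF alone (log2 -4.24 ± 0.20 for LOX and 2.15 ± 0.15 for LOXL2) and after OSM alone (-1.46 ± 0.17 and 3.35 ± 0.15).

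Of 10 collagen receptors, 9 were tested, and TGFB called 5 higher, EGF 6 higher and 1 lower, OSM 5 and 2, and all ligands 5 and 2 (of all genes 35.6%, 73.5%, 63.3% and 74.4% were called, in that order). The EGF and all-ligand counts, 7 of 9 each, are near those shares. TGFB raised MRC2, a collagen uptake receptor (1.48 ± 0.10 (SE), adjusted p = 6.0e-11), and the collagen-binding integrin chains ITGA2 (1.42 ± 0.10 (SE), adjusted p = 5.1e-11) and ITGA1 (1.37 ± 0.08 (SE), adjusted p = 6.9e-13). After all ligands ITGA2 went from 82.9 ± 9.79 CPM to 711 ± 26.9 CPM (3.42 ± 0.11 (SE), adjusted p = 1.1e-18), ITGA1 rose by 2.06 ± 0.08 (SE), adjusted p = 1.1e-17, and the receptor kinase DDR2 rose to 2.48 ± 0.0278 CPM (2.02 ± 0.19 (SE), adjusted p = 5.7e-10). The far more abundant receptor kinase DDR1 fell from 902 ± 13.9 CPM to 194 ± 15.2 CPM (-1.90 ± 0.13 (SE), adjusted p = 2.1e-11).

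Markers of other cell types were read beside the chains, since fibroblasts and endothelium make much collagen. The basal epithelial markers KRT5, KRT14, KRT17, TP63, CDH3, ITGB4 and LAMA3 were high in every group, CDH1 ranged from 184 to 688 CPM, and EPCAM was low, with group means from 2.87 to 17.9 CPM. Of 8 fibroblast markers, PDGFRA, THY1, LUM and TCF21 had group means of at most 0.243 CPM, PDGFRB reached 1.04 CPM in T0, and FBLN1 ranged from 153 to 898 CPM, DCN from 8.79 to 101 CPM and FAP from 6.96 to 308 CPM. The summed fibroblast list was 246 CPM after EGF+OSM, 871 CPM in PBS and 1050.0 CPM after TGFB. Of 5 endothelial markers CDH5 and TIE1 were at most 0.0597 CPM, and KDR was 33.1 CPM in PBS and 0.943 CPM after EGF. PECAM1 reached 1.63 CPM after OSM and VWF 2.80 CPM in PBS. Of 4 leukocyte markers PTPRC, CD3E and CD79A were at most 0.141 CPM, and CD68 ranged from 23.7 to 41.2 CPM. Of 6 luminal markers KRT8, KRT18 and GATA3 were present in every group, while KRT19 and ELF5 stayed at or under 0.508 CPM and ESR1 at or under 2.71 CPM. The summed luminal list ran from 389.6 CPM after OSM to 961 CPM after all ligands. The summed basal list was 19154 CPM in T0, 13648 CPM in PBS, 18708 CPM after TGFB and 27550.0 CPM after OSM+TGFB. The part of these markers in the collagen differences was not tested.

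The 17 members that the filter removed were COL3A1, COL6A5, COL9A1, COL9A3, COL10A1, COL11A1, COL11A2, COL14A1, COL15A1, COL19A1, COL20A1, COL21A1, COL22A1, COL23A1, COL24A1, COL25A1 and COL26A1. None was at 0 in all libraries. The highest group means among them were 0.262 CPM for COL15A1 after all ligands and 0.184 CPM for COL11A2 after OSM+TGFB. COL26A1 had 1 count and COL11A1 had 2 counts in the whole series. A group total of 0 counts still allows up to 3 counts, by counting error only, so these genes are at or below detection and not shown to be absent.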

How the data were processed

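Per the submitters' processing notes, the tools included Trim Galore 0.4.3, cutadapt 1.10, FastQC 0.11.5, kallisto 0.46.2 and R 3.5.0, with builds GRCh38.p5 and hg38. The role of each is not given in the sources used here. The deposited table holds whole-number estimated counts per Ensembl gene with symbol and gene type, and no value is fractional. Libraries were made with a stranded poly(A) kit, per the labels' protocols.

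Rows sharing a symbol and gene type were summed, and 7165 rows without a symbol (0.324% of counts) were kept by Ensembl ID. edgeR 4.0.16 in R 4.3.3 (filterByExpr, TMM, robust quasi-likelihood test) fitted all 27 libraries with 1 mean per group and 18 residual degrees of freedom, with Benjamini-Hochberg adjustment over 15577 genes. TMM factors ran from 0.867 to 1.12 and the biological coefficient of variation was 7.83%. The fit was tested on simulated data, but no outcome is given here, so nothing about the p-values rests on it. No 2 libraries of a group agreed within sampling noise (chi-square per degree of freedom 6.84 to 33.9). Errors are the SD over 3 libraries or the SE of the model. Transcript lengths and gene coordinates are from GENCODE release 44.

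Members at 10 CPM or more are described by library, those from 1 to 10 CPM by group mean, and others by range. Other pathway genes named are the 3 called genes of each list with the largest change after TGFB and after all ligands, and DDR1 for its high level. The members, lists and tests were chosen with earlier results of these data known. Alternatives were DESeq2 1.42.0 and its size factors, upper-quartile scaling, no filter, rows as deposited, only the groups compared, a replicate block, and each library left out.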

Additional observations from a re-analysis of the deposited data

Results flagged for a closer look

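The effect of each ligand in PBS was compared with its effect in the presence of 1 other ligand. For 6 collagen genes both effects were called with opposite sign, and the difference between them was itself called. The share of all genes tested that reversed in this way was not computed. The count of 6 is therefore a description and does not set collagen genes apart. Backgrounds of 2 ligands were not compared with PBS in this way. All values here are log2 fold changes (or their differences) with SE, and adjusted p comes from edgeR over all genes tested.

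COL4A6 rose slightly with TGFB in PBS (0.19 ± 0.05) and fell with it in EGF (-0.24 ± 0.05), a difference of -0.43 ± 0.07 (adjusted p = 4.2e-05). EGF raised COL4A6 in PBS by 0.15 ± 0.05 and lowered it in TGFB (-0.28 ± 0.05), which is the same difference of -0.43. EGF also lowered it in OSM (-0.41 ± 0.05), a difference of -0.56 ± 0.07 (adjusted p = 3.5e-07). The small rise with EGF in PBS was not called with upper-quartile scaling (0.08, adjusted p = 0.137).

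COL6A1 and COL6A2 fell with TGFB in PBS (-0.94 ± 0.14 and -1.39 ± 0.22) and rose with it in OSM (0.38 ± 0.16 and 1.19 ± 0.28). The differences were 1.32 ± 0.21 for COL6A1 (adjusted p = 9.3e-05) and 2.58 ± 0.36 for COL6A2 (adjusted p = 1.1e-05). Without OSM replicate 3 the rise of COL6A1 in OSM was not called (0.26, adjusted p = 0.217). That call, at an adjusted p of 0.045, was also lost under 5 other alternatives, among them no filter on low counts and upper-quartile scaling.

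COL6A3 rose with OSM in PBS (5.92 ± 0.29) and fell with OSM in EGF (-0.74 ± 0.17), a difference of -6.66 ± 0.34 (adjusted p = 4.7e-12). COL12A1 rose with EGF in PBS (1.47 ± 0.20) and fell with EGF in OSM (-0.72 ± 0.18), a difference of -2.19 ± 0.27 (adjusted p = 1.7e-06).

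COL5A3 fell with TGFB in PBS (-0.54 ± 0.17), rose with it in EGF (0.39 ± 0.16) and rose with it in OSM (0.98 ± 0.17). The differences were 0.93 ± 0.23 (adjusted p = 0.0033) and 1.52 ± 0.23 (adjusted p = 4.3e-05). OSM lowered COL5A3 in PBS (-0.57 ± 0.17) and raised it in TGFB (0.95 ± 0.17), the same difference of 1.52. Both falls in PBS were lost without PBS replicate 3 (-0.31, adjusted p = 0.163 for TGFB, -0.34, adjusted p = 0.077 for OSM). The fall with TGFB was also lost without TGFB replicate 1 or 2. The rise with TGFB in EGF was lost without any 1 library of either group other than EGF replicate 2, and with upper-quartile scaling or DESeq2 size factors (without EGF replicate 3: 0.36, adjusted p = 0.1098).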

How the results depend on the processing

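Of 384 called member values, recomputed 5348 times under the alternatives, none changed direction, 5148 recomputed values kept the call and 200 lost it, from 47 called values. Of 183 uncalled values, 43 were called under some alternative. No count of called members moved by over 1.5 times. With 1 library left out the count ran from 18 to 19 for EGF, 18 to 22 for OSM and 18 to 20 for TGFB against PBS, and from 21 to 23 for all ligands. Against T0, PBS gave 11 to 13. Dividing by TMM-scaled library sizes in place of library totals moved the collagen share to 0.164% in T0, 0.168% in PBS, 0.183% after EGF, 0.274% after TGFB, 0.375% after EGF+TGFB, 0.470% after OSM+TGFB and 0.401% after all ligands, a shift made by the denominator alone. OSM was then at 0.252% and EGF+OSM at 0.196%. The group means with TGFB still lay above those without it, but the libraries overlapped (OSM replicate 1 at 0.270%, TGFB replicate 2 at 0.267%). With upper-quartile scaling the median gene lay at -0.14 (log2) against PBS after EGF, at -0.13 after EGF+OSM and at -0.14 after EGF+TGFB. Same-numbered libraries deviated together with a median r of 0.188, against -0.088 for libraries that differed in number and group. The lowest of 108 same-numbered pairs was -0.0843, and 85 exceeded 0.1. In every group replicate 1 held the highest collagen share, so libraries of one number were not fully independent. The labels do not say what the numbers mark, so the main fit did not pair the samples and a replicate block was an alternative. With a replicate block the counts were 18 for EGF, 20 for OSM, 20 for TGFB and 16 for the OSM+TGFB departure (13 without it). Low counts limit COL1A2, COL5A1, COL8A2 and COL9A2 most.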
